A study of Mus musculus with 10 samples.

Results

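Proteins that store maternal mRNA were followed in mouse oocytes with and without RNA interference against basonuclin (Bnc1), a zinc finger protein of germ cells and keratinocytes. The set was chosen by gene symbol and holds 10 genes, Igf2bp1, Igf2bp2, Igf2bp3, Ybx1, Ybx2, Lsm14b, Ddx6, Patl2, Zar1 and Zar1l. The platform annotation gave probe sets for 8 of them, and all 8 were among the 10590 genes tested. The mRNA levels of Igf2bp2 and Zar1l were not analysed here. The study measured mRNA on oligonucleotide arrays in 6 RNAi-transgenic samples (labelled replicates 4, 5, 6, 11, 12 and 13) and 4 non-transgenic samples (replicates 1, 2, 7 and 8). Each sample was the RNA of about 50 fully grown oocytes at the germinal vesicle stage, taken from 1 mouse. The transgene makes RNA interference in oocytes alone, per the design text. Its promoter, the strain and the age of the mice are not given in the sources used here.

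A growing oocyte transcribes a large stock of mRNA and then falls silent, and much of that stock is kept untranslated until meiotic maturation or fertilization. Y-box proteins coat these mRNAs along their length. The helicase DDX6 with its partners LSM14B and PATL2 holds capped mRNA in a repressed state, ZAR1 binds maternal mRNA in the same cytoplasmic stores, and IGF2BP proteins bind mRNA through KH domains and protect it from decay.

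Igf2bp3 was the member that differed most. It fell in RNAi-transgenic oocytes to about 2.79-fold below non-transgenic oocytes on its brightest probe set. The fall was smaller on its other probe sets, and only 1.45-fold on 1433731_at. Lsm14b rose slightly, by 0.13 on the log2 scale, and passed the test in only 9 of 14 alternative fits. The brightest probe sets of Igf2bp1, Ybx1, Ybx2, Ddx6, Patl2 and Zar1 did not pass the test, and for Ddx6 the probe sets disagreed. For Igf2bp1, 2 dim probe sets that were not tested were higher in RNAi-transgenic oocytes without overlap of the groups. All non-transgenic samples were below the filter level of log2 5 on both. How many probe sets that failed the filter separate the groups was not counted. All values are log2 of the deposited intensity, differences are RNAi-transgenic minus non-transgenic, and a change means an adjusted p below 0.05 in limma, a linear model fitted over all tested genes. By that rule 1 member was higher and 1 lower of 8, where 37.2% of all tested genes changed (18.9% higher and 18.3% lower). On the brightest probe sets the groups did not overlap for 2 members, Igf2bp3 and Lsm14b, and for 28.0% of all tested genes. The median difference of the 8 members was 0.01, against -0.03 over all tested genes. The oocytes of a sample were pooled, so fewer oocytes that hold an mRNA and less of it in each oocyte cannot be told apart.

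**Figure D1:**
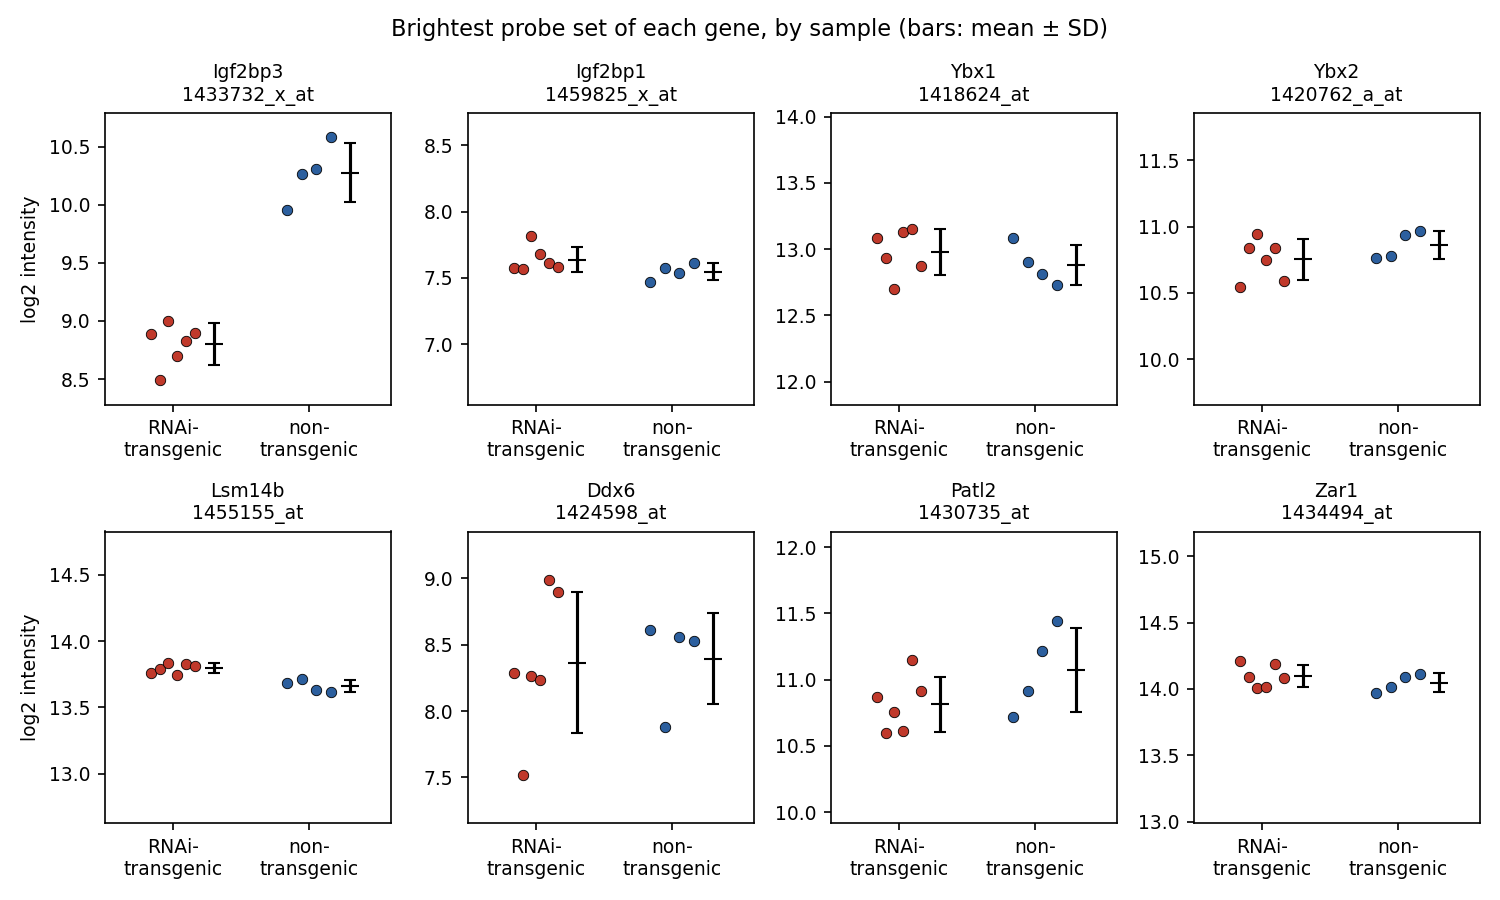
The brightest probe set of 8 storage protein genes, as log2 intensity in each sample, with 6 RNAi-transgenic samples left of 4 non-transgenic samples in each panel and bars for the mean and SD. Igf2bp3 is lower in all 6 RNAi-transgenic samples, the Lsm14b groups lie 0.13 apart without overlap, and the groups of the other 6 genes overlap.

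The targeted gene matched the labels. Bnc1 was at 3.85 ± 0.21 (SD, n = 6) in RNAi-transgenic and 11.57 ± 0.15 (SD, n = 4) in non-transgenic oocytes. Its paralog Bnc2 was at 12.56 ± 0.11 and 12.56 ± 0.10 in RNAi-transgenic and non-transgenic oocytes. The median intensity of an array was between 17.5 and 20.1. Each array correlated with the others of its group at a mean r of 0.980 to 0.990 over tested genes, lowest for non-transgenic replicate 1. The difference between 3' and 5' control probe sets, a sign of RNA length, was 3.63 to 4.12 for Gapdh in RNAi-transgenic and 3.72 to 4.34 in non-transgenic samples. For beta-actin it was 3.40 to 5.13 in RNAi-transgenic samples, with replicate 6 the highest, and 3.44 to 4.01 in non-transgenic samples. Summed over 14 granulosa and cumulus cell markers, intensity was 1713 to 2798 in RNAi-transgenic and 1766 to 1987 in non-transgenic samples. Of these markers, Amh, Inhba, Has2, Ptx3 and Amhr2 were below the filter level of log2 5 on every array. Of 8 granulosa and cumulus cell markers tested, 2 rose (Fshr by 1.24 and Cyp11a1 by 1.57) and 0 fell. The median difference of these 8 was 0.44, against -0.03 over all tested genes. The brightest did not pass, with Nr5a2 at 9.87 and 9.94, Gja1 at 8.56 and 8.01 and Gata4 at 7.61 and 7.98 in RNAi-transgenic and non-transgenic oocytes. Summed over 12 markers of stroma, theca and vessels, intensity was 317 to 398 in RNAi-transgenic and 228 to 299 in non-transgenic samples. All 3 of these markers that were tested changed, with a median difference of 1.11. Of all tested genes 37.2% changed, and for 28.0% the groups did not overlap. Kdr, a receptor of vessels, rose by 1.19 (limma adjusted p = 2.61e-05) and Dcn, a matrix protein of stroma, by 1.11 (adjusted p = 0.00279), both without overlap of the groups, and the smooth muscle actin gene Acta2 fell by 0.50 (adjusted p = 0.0443). Another 8 were below the filter level everywhere, Col1a2, Col3a1, Pecam1, Cyp17a1, Star, Lum, Pdgfra and Cdh5. Summed over 11 blood and immune markers, intensity was 2925 to 4576 in RNAi-transgenic and 3495 to 4365 in non-transgenic samples, and 7 of them, Ptprc, Cd68, Lyz2, Hba-a1, C1qa, Cd74 and Coro1a, were below the filter level everywhere. Of 4 tested, Laptm5 rose by 1.06 (adjusted p = 0.0217) and Srgn fell by 0.56 (adjusted p = 0.000467, no overlap), while H2-Aa, at 9.73 in RNAi-transgenic and 9.40 in non-transgenic oocytes, and 1 other did not pass. The part of these cells and of RNA length in the differences of single genes was not tested beyond the fits with a 3' to 5' covariate. The 12 oocyte markers summed to between 186026 and 219914 in RNAi-transgenic and between 192189 and 207638 in non-transgenic samples. Of these 12, all tested, 2 fell (Figla by 0.54, adjusted p = 0.0153, and Dppa3 by 0.21, adjusted p = 0.0265). An unadjusted p below 0.05 was reached by 6 of the 12, and by 4869 of all 10590 tested genes. Of those 6, Bmp15 (0.24), Zp1 (0.23) and Mos (0.16) were higher and Figla, Dppa3 and Nlrp5 lower. The brightest did not pass, and of them Nlrp5 was at 14.69 and 14.83, Oosp1 at 14.65 and 14.66 and Zp3 at 14.59 and 14.61 in RNAi-transgenic and non-transgenic oocytes. The median difference was -0.01 for the tested oocyte markers and 0.20 for the tested blood markers. With 1 sample left out, the number of markers that fell was 0 to 3 for oocytes and 0 to 1 for stroma and for granulosa. The number that rose was 0 to 3 for oocytes, 1 to 3 for granulosa and 0 to 1 for blood.

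IGF2BP proteins come first by their role as binders that shield mRNA from decay. Igf2bp3 encodes a member of this family that is known mostly from embryos, germ cells and tumours. On its brightest probe set, 1433732_x_at, the 6 RNAi-transgenic samples ran from 8.49 through a median of 8.85 to 9.0. The 4 non-transgenic samples were at 9.96, 10.26, 10.31 and 10.58. Every RNAi-transgenic sample was thus lower than every non-transgenic one, which held for 13.1% of all tested genes. The means were 8.80 ± 0.18 (SD, n = 6) in RNAi-transgenic and 10.28 ± 0.25 (SD, n = 4) in non-transgenic oocytes. The difference was -1.48 (SE 0.13, 95% interval -1.77 to -1.19, limma adjusted p = 7.6e-06), and 78 tested genes had a more negative one. Within the samples numbered 1 to 6 it was -1.32 (adjusted p = 0.0123) and within those numbered 7 to 13 it was -1.64 (adjusted p = 0.00103).

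Igf2bp3 fell on each of the 5 probe sets that were above the filter level in both groups, but not at 1 size. Fitted each by itself among 18582 probe sets, these 5 were lower at an adjusted p below 0.05, where 33.2% of all probe sets changed and 16.2% were lower. The probe set 1422610_s_at was at 8.46 to 8.82 in RNAi-transgenic and 9.84 to 10.19 in non-transgenic samples, a difference of -1.37 (limma adjusted p = 1.53e-06). Next in size of the difference came 1422611_s_at at -1.30 and 1450687_at at -1.21. For none of these did the groups overlap.

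The 2 smallest differences of Igf2bp3 were on 1453957_a_at and 1433731_at. The dimmest probe set, 1453957_a_at, differed by -0.89. All 6 RNAi-transgenic samples were below the filter level there, at 4.05 to 4.59, while the 4 non-transgenic samples were at 5.06 to 5.63, so it entered the test only through the non-transgenic samples. Against the filter level it was at least 1.28-fold lower in RNAi-transgenic oocytes. On 1433731_at the RNAi-transgenic samples ran from 8.61 to 9.12 with a median of 8.80. The non-transgenic samples were at 9.56, 9.26, 9.36 and 9.24, a difference of -0.53 (SE 0.11, limma adjusted p = 0.00339).

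The 2 probe sets 1433732_x_at and 1433731_at are annotated to the same sequence record, yet their differences were not alike. In RNAi-transgenic oocytes the first was level with the second, at -0.03 ± 0.10 (SD, n = 6), while in non-transgenic oocytes it was higher by 0.92 ± 0.39 (SD, n = 4). This gap between the groups, -0.95, was larger than the spread between samples (two-sided exact permutation p = 0.00476, the smallest these group sizes allow). The comparison was not planned, and the 2 probe sets had already been seen to differ, so this p-value is no separate support. The ending _x_at marks a probe set whose probes may also match other transcripts, and _s_at one that may match several related transcripts. The other probe sets above the filter level in both groups differed by -1.21 to -1.37.

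**Figure D2:**
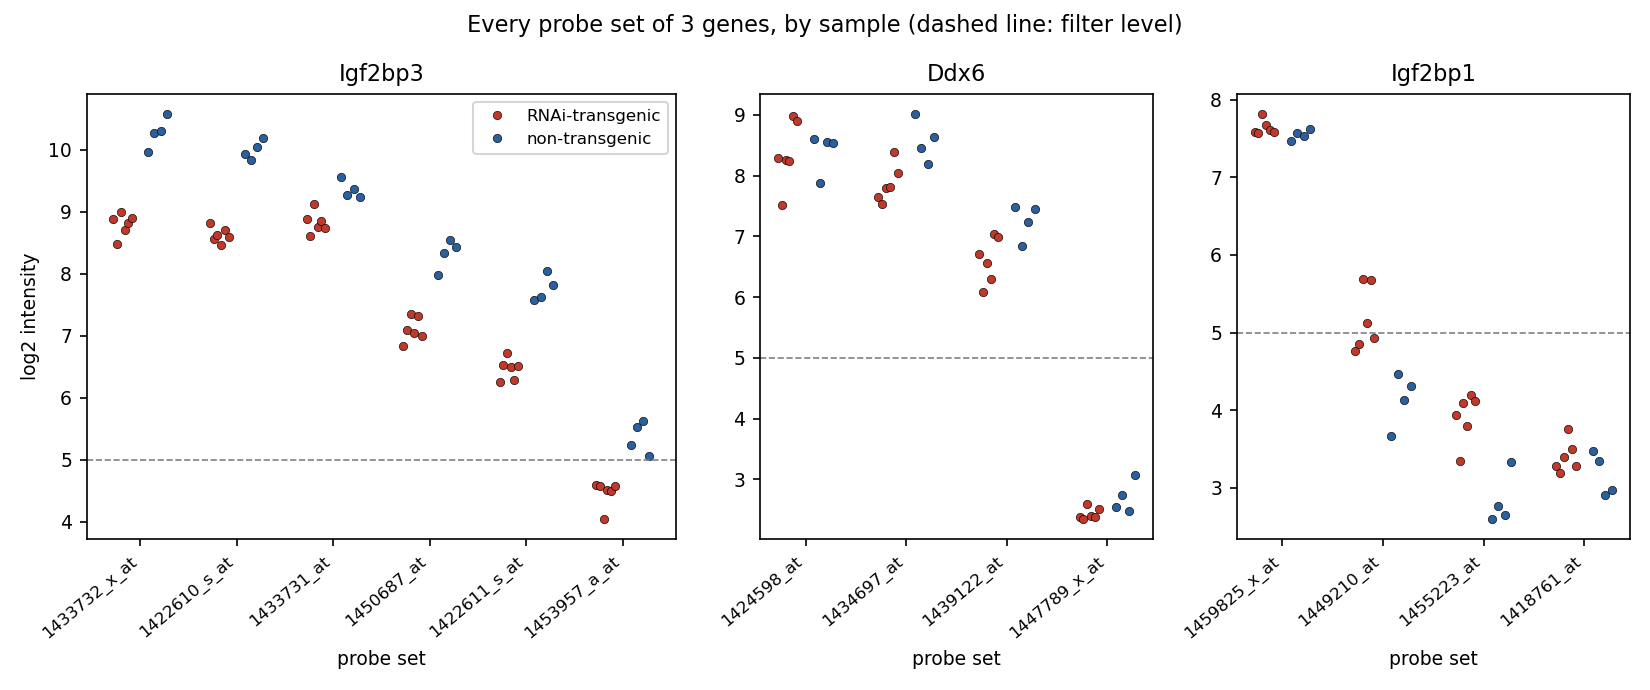
Log2 intensity of every probe set of Igf2bp3, Ddx6 and Igf2bp1 in each sample, RNAi-transgenic samples left of non-transgenic ones, with the filter level of 5 as a dashed line. All 6 Igf2bp3 probe sets separate the groups, though on 1453957_a_at every RNAi-transgenic sample lies below the filter level. Among all tested genes, on their brightest probe sets, the groups did not overlap for 28.0%. The Ddx6 probe set 1424598_at does not separate the groups, while 1434697_at and 1439122_at lie lower in RNAi-transgenic oocytes. The 2 Igf2bp1 probe sets whose groups do not overlap lie around or below the filter level.

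The sequence before the Igf2bp3 start is shown because this gene carries the largest difference of the set. The 250 bases before its annotated start (chr6:49214955-49215204, minus strand, GRCm38.p6, from RefSeq) are given 5′ to 3′, with capitals for CACGTG, a form of the E-box, and for CCAAT on either strand.
Igf2bp3: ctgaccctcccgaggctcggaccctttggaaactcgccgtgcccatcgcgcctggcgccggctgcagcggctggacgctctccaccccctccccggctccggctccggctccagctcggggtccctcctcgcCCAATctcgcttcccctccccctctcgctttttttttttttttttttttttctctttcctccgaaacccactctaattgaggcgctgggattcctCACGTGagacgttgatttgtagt
It held 1 CACGTG, which ends 17 bases before the start, and 1 CCAAT. Of all 32851 promoter windows of this length 6.02% held CACGTG and 33.9% held CCAAT. The GC content of the window was 60.4%, against a median of 52.4% over all windows. The promoter table lists 9 windows of 8 genes of the set, with Igf2bp2 and Zar1l and without Igf2bp1 and Ddx6, and CACGTG was in none of the others.

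Igf2bp1 encodes the first protein of the same family. Its brightest probe set, 1459825_x_at, ran from 7.57 to 7.82 in RNAi-transgenic samples with a median of 7.60. By its ending, its probes may also match other transcripts. The non-transgenic samples were at 7.47, 7.57, 7.53 and 7.62, and the groups overlapped. The difference was 0.09 (95% interval -0.09 to 0.27, limma adjusted p = 0.425).

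The other 3 Igf2bp1 probe sets were dim and failed the filter, which asks for a log2 value above 5 on at least 4 arrays. On 1449210_at the RNAi-transgenic samples were at 4.76 to 5.69, with 3 of 6 above the filter level, and the non-transgenic samples were at 3.66, 4.47, 4.14 and 4.31. On 1455223_at they were at 3.34 to 4.19 in RNAi-transgenic and 2.60 to 3.34 in non-transgenic samples. The groups did not overlap on either, though on the second their nearest samples were equal to 2 decimals (exact permutation p = 0.00476 for both). The share of such dim probe sets that separate the groups was not counted. On 1418761_at the means were 3.40 and 3.18 in RNAi-transgenic and non-transgenic oocytes (exact permutation p = 0.176). No fold is given for these, since at least 1 group lay below the filter level. The difference between Igf2bp1 and Igf2bp3 was not tested.

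Y-box proteins are the main packaging proteins of stored mRNA, and neither of the 2 measured members passed the test. Ybx2, also called MSY2, is the germ cell member and is known as one of the most abundant RNA-binding proteins of the mouse oocyte. Its only probe set ran from 10.55 to 10.95 in RNAi-transgenic samples with a median of 10.79, and the non-transgenic samples were at 10.76, 10.78, 10.93 and 10.97. The difference was -0.11 (95% interval -0.31 to 0.09, limma adjusted p = 0.394), and the groups overlapped.

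Ybx1, the Y-box protein of most somatic cells, was bright on 1 of its 3 probe sets. On 1418624_at the RNAi-transgenic samples ran from 12.70 to 13.16 with a median of 13.01. The non-transgenic samples were at 13.08, 12.90, 12.81 and 12.73, inside that range. The difference was 0.10 (95% interval -0.12 to 0.32, limma adjusted p = 0.482). It had the opposite sign within the samples numbered 1 to 6 (-0.09) and with the Gapdh covariate (-0.02). The other 2 probe sets were below the filter level in all 10 samples, at 3.43 to 3.74.

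Y-box proteins are named for the Y-box, an inverted CCAAT box, and the Ybx1 promoter is shown for the number of CCAAT matches it holds, all of them in the forward direction on the strand of the gene. The 250 bases before its start (chr4:119294514-119294763, minus strand, GRCm38.p6, from RefSeq) are given 5′ to 3′ with the same motifs in capitals.
Ybx1: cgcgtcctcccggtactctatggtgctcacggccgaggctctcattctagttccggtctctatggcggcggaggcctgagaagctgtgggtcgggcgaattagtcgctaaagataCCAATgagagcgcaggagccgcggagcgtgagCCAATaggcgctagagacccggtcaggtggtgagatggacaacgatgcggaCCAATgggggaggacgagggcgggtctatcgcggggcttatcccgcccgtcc
It held 3 CCAAT matches, as did 2.79% of all windows with at least that many, and no CACGTG. A match here is only a run of letters.

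DDX6, LSM14B and PATL2 form the repressed, capped state of stored mRNA. Lsm14b encodes an RNA-binding partner of DDX6 that is abundant in oocytes. Its probe set ran from 13.74 to 13.84 in RNAi-transgenic samples with a median of 13.80, and the non-transgenic samples were at 13.69, 13.71, 13.63 and 13.62. All 6 RNAi-transgenic samples were higher than any non-transgenic sample. The means were 13.79 ± 0.04 (SD, n = 6) in RNAi-transgenic and 13.66 ± 0.05 (SD, n = 4) in non-transgenic oocytes, and the difference of 0.13 (SE 0.04, 95% interval 0.05 to 0.22) was past the threshold (limma adjusted p = 0.021). The call was lost without non-transgenic replicate 7 (adjusted p = 0.0542) or 8 (adjusted p = 0.0652), within the samples numbered 1 to 6 (0.09, adjusted p = 0.347) and within those numbered 7 to 13 (0.17, adjusted p = 0.0862). It was lost too after median centring (0.08, adjusted p = 0.268), which also moved the median of all tested genes to -0.08, with eBayes without a trend (adjusted p = 0.0956) and with the Gapdh covariate (0.12, adjusted p = 0.0912).

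Ddx6 encodes the DEAD-box helicase at the centre of this complex and of P-bodies. On its brightest probe set, 1424598_at, the RNAi-transgenic samples ran from 7.52 to 8.99 with a median of 8.28, the widest spread among the members' brightest probe sets. The non-transgenic samples were at 8.61, 7.88, 8.56 and 8.53. The groups overlapped and the difference was -0.03 (95% interval -0.62 to 0.56, limma adjusted p = 0.945). It turned positive without non-transgenic replicate 1, 7 or 8 (0.02 to 0.04) or RNAi-transgenic replicate 5 (0.14), with array weights (0.02), within the samples numbered 7 to 13 (0.16) and with either RNA length covariate (0.15 for Gapdh and 0.003 for beta-actin).

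The next 2 probe sets of Ddx6 were lower in RNAi-transgenic oocytes. On 1434697_at the RNAi-transgenic samples were at 7.53 to 8.39 with a median of 7.81, and the non-transgenic samples were at 9.02, 8.45, 8.19 and 8.64. The difference was -0.70 (SE 0.19, limma adjusted p = 0.0155 over all probe sets). On 1439122_at it was -0.64 (SE 0.20, limma adjusted p = 0.0328). On 5 and 4 of the 6 RNAi-transgenic samples the value lay below all non-transgenic samples, so the groups overlapped slightly on both.

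The gap between 1424598_at and these 2 probe sets was itself larger than the spread between samples. These comparisons were not planned, and the probe sets had already been seen to differ, so their p-values are no separate support. The level of 1424598_at minus that of 1434697_at was 0.49 ± 0.29 (SD, n = 6) in RNAi-transgenic and -0.18 ± 0.41 (SD, n = 4) in non-transgenic oocytes (exact permutation p = 0.019). The level of 1424598_at minus that of 1439122_at was 1.75 ± 0.21 and 1.14 ± 0.13 in RNAi-transgenic and non-transgenic oocytes (exact permutation p = 0.00476). Between 1434697_at and 1439122_at it was 1.26 ± 0.23 and 1.32 ± 0.31 (exact permutation p = 0.71). The mean of the 3 probe sets gave -0.46, which did not pass (limma adjusted p = 0.103). Which transcript form or part of the mRNA each probe set reads was not tested, and the fourth, 1447789_x_at, was at 2.35 to 3.07 in all samples.

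Patl2 encodes the oocyte form of the Pat1 protein, and its loss in humans stops oocyte maturation. Its probe set ran from 10.59 to 11.15 in RNAi-transgenic samples with a median of 10.81, and the non-transgenic samples were at 10.72, 10.91, 11.22 and 11.44. The groups overlapped, with a difference of -0.26 (95% interval -0.59 to 0.07, limma adjusted p = 0.203). The difference was -0.08 within the samples numbered 1 to 6 and -0.44 within those numbered 7 to 13, -0.14 without non-transgenic replicate 8 and -0.38 without non-transgenic replicate 1, and it did not pass in any of these.

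Zar1, needed for the first embryonic cell cycle and a binder of maternal mRNA, overlapped between the groups. It ran from 14.01 to 14.21 in RNAi-transgenic samples with a median of 14.08, and the non-transgenic samples were at 13.97, 14.01, 14.09 and 14.12. The difference was 0.05 (95% interval -0.07 to 0.17, limma adjusted p = 0.498), and its sign turned after median centring and within the samples numbered 7 to 13 (-0.01 for both).

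**Figure D3:**
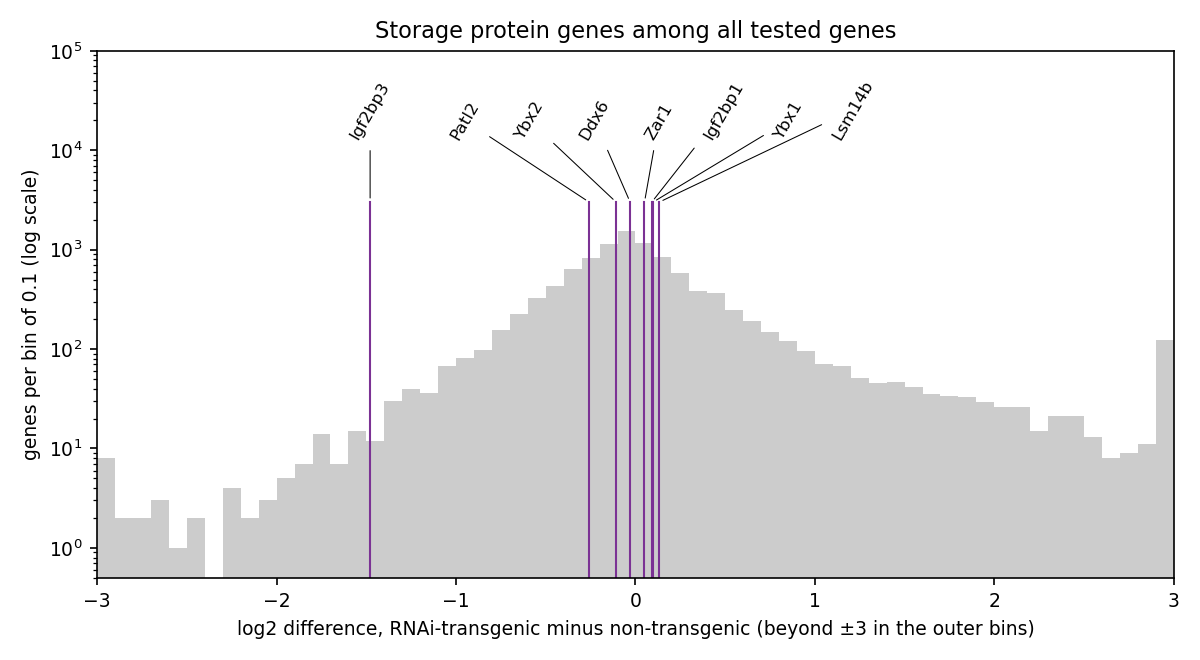
Number of genes (log scale) in bins of the log2 difference, RNAi-transgenic minus non-transgenic, for 10590 tested genes, with lines for the 8 storage protein genes. On their brightest probe sets Igf2bp3 lies at -1.48 and the other 7 lie between -0.26 and 0.13, around the median of all tested genes at -0.03. For Ddx6, 2 other tested probe sets, not drawn here, differed by -0.70 and -0.64.

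Partners of the DDX6 and LSM14 complex, including the cap-binding proteins and the decapping machinery, were listed as 20 genes, of which 15 were tested. Of these 0 rose and 3 fell in limma, so 20% changed, against 37.2% of all tested genes. At an unadjusted p below 0.05, 4 of the 15 passed in either direction, and 4869 of all 10590 tested genes did. The median difference was -0.04, against -0.03 over all tested genes. Dcp2, the decapping enzyme, fell furthest. Its RNAi-transgenic samples ran from 5.93 to 7.90 with a median of 6.85, and its non-transgenic samples were at 8.08, 7.96, 8.41 and 8.59, a difference of -1.34 (SE 0.38, limma adjusted p = 0.0164). A second probe set of Dcp2 gave -0.20 and did not pass (adjusted p = 0.59), nor did the first with the Gapdh covariate (adjusted p = 0.0634). Lsm6, of the ring that binds deadenylated mRNA and U6 RNA, fell by 0.39 (limma adjusted p = 0.000962), and all 3 of its probe sets were lower. Edc4, a scaffold of decapping, fell by 0.29 (adjusted p = 0.00209). Eif4enif1, which links the cap-binding protein to DDX6, was at 12.36 ± 0.06 in RNAi-transgenic and 12.34 ± 0.09 in non-transgenic oocytes. Lsm14a, the paralog of Lsm14b, was at 13.66 ± 0.03 and 13.70 ± 0.07, and neither passed.

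**Figure D4:**
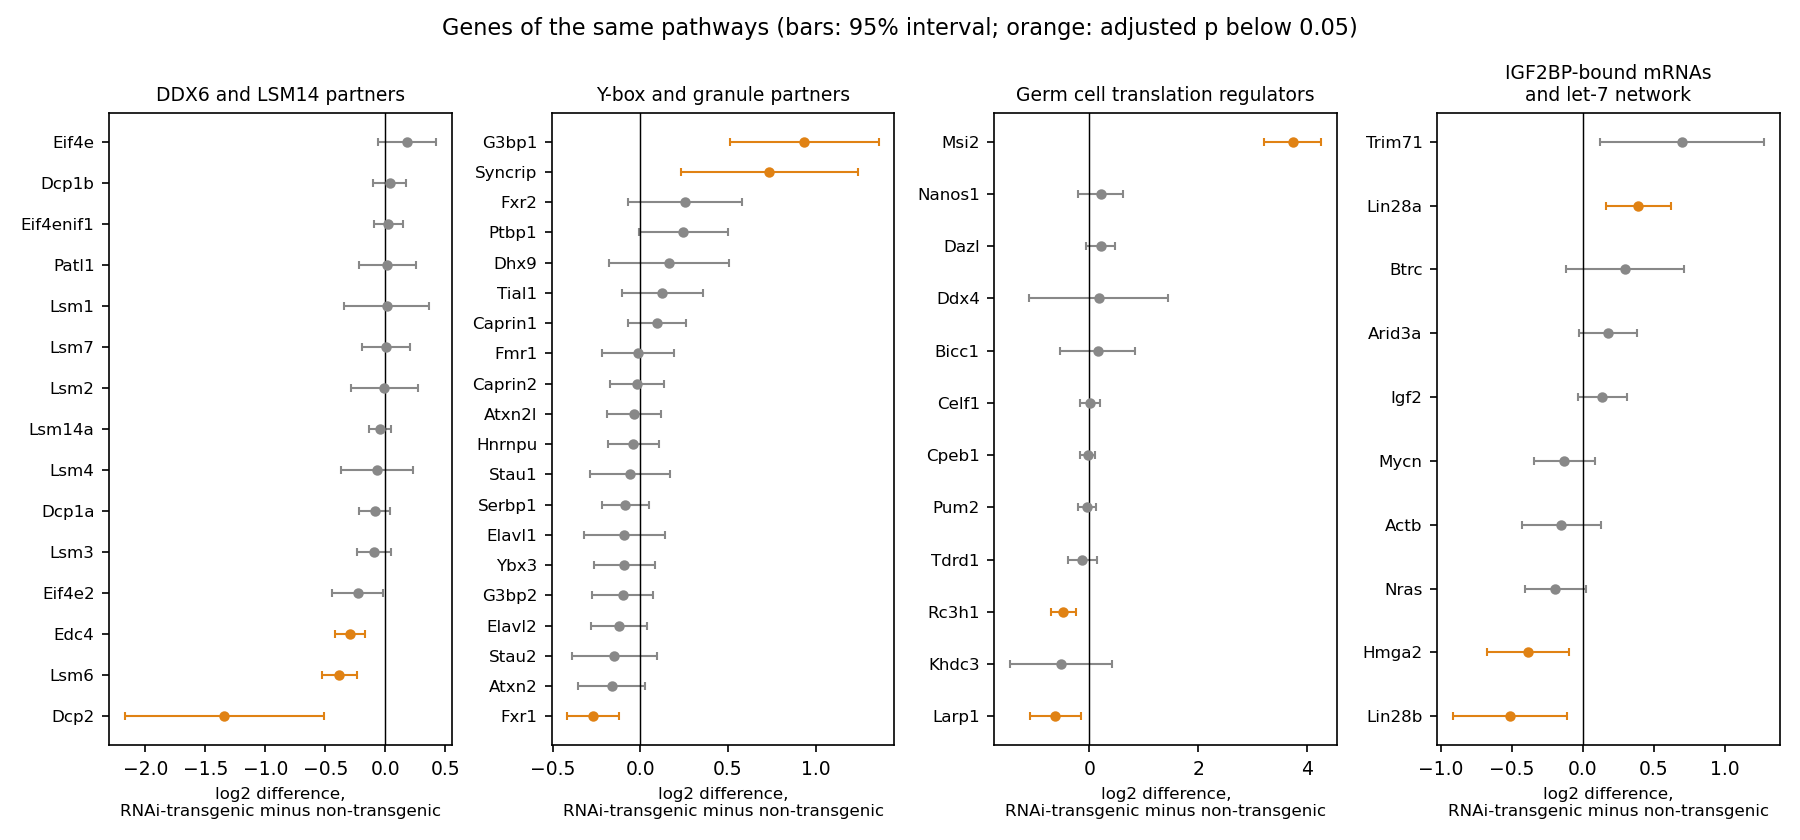
Log2 difference, RNAi-transgenic minus non-transgenic, with its 95% interval, for each tested gene of 4 lists (15, 20, 12 and 10 genes), orange where the adjusted p is below 0.05. Dcp2 lies at -1.34 and Msi2 at 3.74, while most other genes lie within 0.5 of 0.

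Proteins known to share granules with Y-box and IGF2BP proteins were listed as 22 genes, of which 20 were tested. Of these 2 rose and 1 fell, or 15% against 37.2% of all tested genes, with a median difference of -0.04. G3bp1, a nucleator of stress granules, was at 8.59 to 9.64 in RNAi-transgenic samples with a median of 9.10, and at 7.79, 8.22, 8.33 and 8.46 in non-transgenic samples. It rose by 0.94 (SE 0.19, limma adjusted p = 0.00308) without overlap of the groups. Syncrip, an RNA-binding protein of IGF2BP complexes, rose by 0.74 (limma adjusted p = 0.0265). The call of Syncrip was lost without non-transgenic replicate 1 or 7 or RNAi-transgenic replicate 4, 12 or 13 (adjusted p 0.0502 to 0.0794), and with the Gapdh covariate (0.137), and 1 of its 3 probe sets gave -0.19. Fxr1, a relative of the fragile X protein, fell by 0.27 (limma adjusted p = 0.00953) on 1 of 4 probe sets, and another gave 0.15. Ybx3, the third Y-box gene, was at 14.40 ± 0.14 in RNAi-transgenic and 14.49 ± 0.12 in non-transgenic oocytes (adjusted p = 0.397).

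Regulators of translation and genes of germ cells were listed together. Not all of them are particular to germ cells or read a sequence in the mRNA. The list held 18 genes, of which 12 were tested. Of these 1 rose and 2 fell, or 25% against 37.2% of all tested genes, with a median difference of -0.01. Msi2, a Musashi protein known to bind mRNA and control its translation, rose by 3.74 (SE 0.24, limma adjusted p = 6.1e-07). It ran from 9.58 to 10.14 in RNAi-transgenic samples with a median of 9.82, and was at 5.48, 5.85, 5.96 and 6.98 in non-transgenic samples. Of its 5 tested probe sets 4 were higher and 1 gave -0.09. Rc3h1, which encodes Roquin and promotes decay of mRNA with stem-loops, fell by 0.48 (adjusted p = 0.0038). Larp1, a binder of capped ribosomal protein mRNA, fell by 0.63 (adjusted p = 0.0376). The call of Larp1 was lost without non-transgenic replicate 2 or 8 or RNAi-transgenic replicate 5, 6, 11 or 13 (adjusted p 0.0506 to 0.104), with no filter (0.0601) and with the Gapdh (0.179) or beta-actin covariate (0.0565). It was -0.31 within the samples numbered 1 to 6 and -0.96 within those numbered 7 to 13, and passed in neither. Cpeb1, which holds maternal mRNA with short tails, was at 13.42 ± 0.08 and 13.45 ± 0.12 in RNAi-transgenic and non-transgenic oocytes (adjusted p = 0.73).

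mRNAs known from other cells to be bound by IGF2BP proteins, with genes of the let-7 network to which Igf2bp mRNAs belong, were listed as 14 genes, of which 10 were tested. Of these 1 rose and 2 fell, or 30% against 37.2% of all tested genes, with a median difference of 0.00. Lin28a, a blocker of let-7 processing, rose by 0.39 (limma adjusted p = 0.013, 0.073 with the Gapdh covariate) on its brightest probe set, while its other one gave -0.44 and did not pass (adjusted p = 0.487). The paralog Lin28b fell by 0.52 (adjusted p = 0.0456) and the chromatin protein gene Hmga2 fell by 0.39 (adjusted p = 0.0388). The call of Lin28b was lost without non-transgenic replicate 2, 7 or 8 or RNAi-transgenic replicate 4, 6, 12 or 13 (adjusted p 0.0637 to 0.124), and that of Hmga2 without non-transgenic replicate 1, 2 or 7 or RNAi-transgenic replicate 4, 5, 6 or 13 (adjusted p 0.0584 to 0.11). Both were also lost with no filter (adjusted p 0.0714 for Lin28b and 0.0591 for Hmga2), and Hmga2 with the beta-actin covariate (0.055) and averaged over its probe sets (0.0798). Of the genes of these 4 lists that changed, only Msi2 passed within both the samples numbered 1 to 6 and those numbered 7 to 13. Igf2 itself lay close to the filter level, at 5.23 to 5.37 in RNAi-transgenic and 4.93 to 5.24 in non-transgenic samples, with a difference of 0.14 (adjusted p = 0.206).

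The genes whose pattern over the 10 samples was most like that of Igf2bp3 were Oosp3, an oocyte-secreted protein gene, Gnai1, a G protein subunit, Grb10, an adaptor of growth factor receptors, Cgn, which encodes cingulin of tight junctions, and Tbrg4, a mitochondrial RNA-binding protein. Their Pearson's r with Igf2bp3 was 0.977, 0.976, 0.974, 0.974 and 0.973 over 10 samples, with Spearman's rho of 0.891 for the first 4 and 0.879 for Tbrg4. The difference was -0.48 for Oosp3, -1.05 for Gnai1, -0.81 for Grb10, -1.13 for Cgn and -0.53 for Tbrg4. In all 5 every RNAi-transgenic sample was lower than every non-transgenic one, so the likeness includes the difference between the groups, and 305 of the 10589 other tested genes had r of at least 0.9.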

How the data were processed

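The authors deposited 1 linear intensity per probe set and array, made with GCRMA per the submitters' processing notes, with no detection flags. GCRMA pulls dim probe sets toward a floor. These values were log2-transformed here and not normalized again. Of 45101 probe sets 34958 had 1 gene symbol, 932 had several and 9211 were not listed in the annotation. Symbols were updated by gene number in RefSeq (34754 found, GRCm38.p6). Probe sets above log2 5 (intensity 32) on at least 4 arrays were tested (18582), with the brightest over 10 samples for each of 10590 genes. Groups were compared without a block with limma 3.58.1 (lmFit, eBayes with a trend, R 4.3.3) and Benjamini-Hochberg adjustment over all genes or all probe sets. The fit was tested on simulated data. Single values had a two-sided exact permutation test over 210 arrangements of the groups. Named genes are all members, Bnc1 and Bnc2, the 3 brightest tested markers of each cell type list, up to 4 genes each way of each partner list that passed, and the 5 genes most like Igf2bp3. Fshr, Cyp11a1, Figla, Dppa3, Bmp15, Zp1, Mos, Eif4enif1, Lsm14a, Ybx3, Cpeb1 and Igf2 were named outside this rule, after their values were seen. Members and lists were chosen with earlier results of these data known. P-values measure the spread between mice, and the number of arrays limits the precision. Promoters were searched on both strands. Figures used matplotlib 3.10.9.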

Additional observations from a re-analysis of the deposited data

Results flagged for a closer look

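In 5 cases the highest or lowest sample of a group stood apart from the others by Dixon's criterion, which chance meets in about 1 of 20 groups, and 72 groups were examined. Among the members, Ddx6 on 1424598_at was lowest in non-transgenic replicate 2, at 7.88 with the next sample at 8.53. Without that sample the Ddx6 difference was -0.20 and did not pass. Igf2bp3 on its dimmest probe set, 1453957_a_at, was lowest in RNAi-transgenic replicate 6, at 4.05 with the next at 4.5, both below the filter level. Among the other genes, Larp1 was lowest in RNAi-transgenic replicate 11 at 5.25 (next 5.97) and Cyp11a1 also in RNAi-transgenic replicate 11 at 5.18 (next 7.00). Figla, an oocyte transcription factor, was lowest in non-transgenic replicate 1 at 8.62 (next 9.27).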

How the results depend on the processing

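Igf2bp3 passed the threshold in 14 of 14 alternatives (-1.64 to -1.13) and without any single sample (-1.58 to -1.38), and at least 1.45-fold lower on each probe set whose groups were both above the filter level. Alternatives were other filters, log2(value + 16), array weights, a robust eBayes or one with no trend, centring arrays on their median, quantile normalization, the number range (1 to 6 or 7 to 13, not labelled as batches) as a covariate or by itself, and averaging all probe sets of a gene, and, chosen after seeing the data, a 3' to 5' covariate from Gapdh or beta-actin. Lsm14b did not pass after median centring (0.075), with eBayes without a trend (0.13), in the samples numbered 1 to 6 (0.094) or 7 to 13 (0.17) or with the Gapdh covariate (0.12), so 0 members were higher in these, and 0 to 1 when 1 sample was left out (Lsm14b 0.12 to 0.15). Ddx6 turned positive with array weights (0.021), in samples 7 to 13 (0.16), and with Gapdh (0.15) and beta-actin (0.0033) as covariate. It ran from -0.20 to 0.14 without 1 sample. Of its other probe sets 2 passed by themselves (-0.70 and -0.64), while the mean of its tested probe sets did not pass (-0.46). Signs also turned for Ybx1 in samples 1 to 6 (-0.088) and with Gapdh (-0.017), Ybx2 in samples 1 to 6 (0.0089), Zar1 after median centring (-0.0065) and in samples 7 to 13 (-0.011), and Bnc2 after quantile normalization (0.010), with array weights (0.0018), in samples 7 to 13 (0.0029) and without 1 sample (-0.031 to 0.028). They turned on single probe sets for Fxr1 (0.15), Syncrip (-0.19), Msi2 (-0.086) and Lin28a (-0.44, and -0.026 averaged over its probe sets). The count of all genes higher and lower was 1207 and 706 in samples 1 to 6 and 1241 and 1023 in samples 7 to 13, where fewer samples were compared, and 1778 to 1954 and 1564 to 1913 without 1 sample. Of the DDX6 partners 1 was higher with no filter or with the mean of probe sets, and 5 were lower after median centring, 1 in samples 1 to 6 and 0 in samples 7 to 13. Of the Y-box partners 1 was higher and 0 lower in samples 1 to 6, 0 and 0 in samples 7 to 13, 4 and 2 with the mean of probe sets, 1 was higher with Gapdh, and 1 to 3 were higher without 1 sample. Of the translation regulators 1 was lower with no filter, a filter of log2 7, Gapdh or beta-actin, 0 in either number range, 2 were higher with the mean of probe sets, and 1 to 2 were higher and 1 to 2 lower without 1 sample. Of the IGF2BP-bound list 2 were higher with a filter of log2 7, array weights or beta-actin and 0 in samples 1 to 6, with the mean of probe sets or with Gapdh, while 0 were lower with no filter and 1 in either number range or with beta-actin, and 1 to 2 were higher and 0 to 2 lower without 1 sample. Other causes of these moves were not tested. No paired analysis was possible because the groups share no replicate number. Values below the filter level of log2 5 carry little signal over background.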
